A study of Arabidopsis thaliana with 15 samples.

Results

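The transcripts described here were high in freshly cut Arabidopsis thaliana leaf tissue, low after 12 and 24 h of culture, and high again at 48 h. They were chosen from array signals. Signals below 32 were set to 32, the log2 values of the 3 arrays of each time were averaged, and each probe set, the group of array features that reads 1 transcript, was scored by the lower of its 0 h and 48 h means minus the higher of its 12 h and 24 h means. The 150 probe sets with the highest score were taken, of 22746 that are not array controls. Of these, 84 were paired with 1 gene in the platform annotation, 2 with several genes and 64 with none listed there. Only 15 of the 84 genes carry a name beyond their locus number, and a role is given below for those alone. Since the score used the arrays of 0, 12, 24 and 48 h, the dip and the return are given as a description without a test. What the score did not fix was tested or compared: whether 48 h or 0 h was higher, whether 24 h or 12 h was higher, where the 36 h arrays lay, and how probe sets chosen on some arrays behaved on others.

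The study followed the conversion of leaf cells into xylem cells in culture. Disks of 1 mm were cut from rosette leaves of wild-type Columbia (Col-0) seedlings grown for 25 days in continuous light. They were placed in a medium with the auxin 2,4-D at 1.25 mg per L, the cytokinin kinetin at 0.25 mg per L and bikinin at 10 µM, an inhibitor of the GSK3-like kinases that restrain brassinosteroid signalling. RNA was taken before culture (0 h) and after 12, 24, 36 and 48 h, and each of these 5 times has 3 of the 15 arrays. All later groups had the same medium, and there was no group in a medium lacking the compounds. The effects of the compounds, of cutting, of culture and of elapsed time therefore cannot be told apart. Whether replicates were separate cultures is not stated, so p-values measure the spread among these arrays, which could be technical in part. Precision is limited by the number of arrays, and fewer cells of a type cannot be told apart from less RNA per cell.

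Several of the named genes belong to processes by which plant cells break down and reuse their own material. In autophagy, proteins of the ATG8 family are attached to the membrane of the autophagosome, which carries cytoplasm to the vacuole, where proteases such as the vacuolar processing enzymes act. Leucine and related amino acids are broken down in mitochondria, and the genes of that route are known for high transcript levels in sugar-starved and darkened leaves. Expansins and related proteins act in the cell wall, which leaf cells remodel when they grow or become xylem.

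Across the 150 probe sets the median log2 signal was 9.23 at 0 h, 6.44 after 12 h, 6.86 after 24 h, 7.79 after 36 h and 8.54 after 48 h. Over all probe sets the medians stayed between 7.08 and 7.34. Within the chosen set 101 had their lower trough mean at 12 h, 46 at 24 h, and 3 had equal floored means. The mean was higher at 0 h than at 48 h in 107 and higher at 48 h in 43. The member median at 48 h was thus below that at 0 h, in means that the score used. The shortfall differed between arrays, with member medians of 9.02, 8.49 and 8.08 at 48 h and 9.14 to 9.26 at 0 h. In the test given below, 104 of the 150 members were not called different between these times. Of all probe sets tested, 33.2% were called higher at 48 h and 23.6% lower. A missing call does not show that the levels were equal. The score had a median of 1.24 and ran from 0.99 to 3.55, against a median of -0.31 for all probe sets. It was above 0 in 3071 probe sets, above 1 in 139 and above 2 in 14. The mirror image, with 12 h and 24 h above 0 h and 48 h, was above 1 in 242 probe sets and above 2 in 23. A dip of this kind was thus the less frequent of these opposed shapes at both sizes. The last members inside the threshold were AT5G61590 with a score of 0.9865, the unlisted probe set 266116_at with 0.9864 and the unlisted 264779_at, also with 0.9864. The first outside were the unlisted 247031_at with 0.9863, AT3G03170 with 0.983 and the unlisted 255381_at with 0.980. The threshold fell where scores were nearly continuous, so these neighbours differ by less than any spread between arrays.

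**Figure D1:**
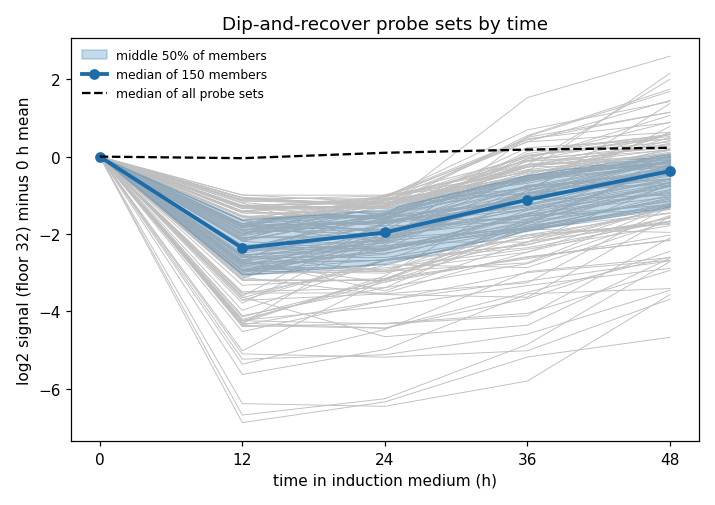
Mean log2 signal of each of the 150 dip-and-recover probe sets (grey lines) relative to its own 0 h mean, with signals below 32 set to 32, against time in the induction medium in hours. The blue line is their median, the band their middle 50%, and the dashed line the median of all 22746 probe sets; the set was chosen for this shape.

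For these transcripts the arrays of 12 h lay close together, as did those of 24 h, whereas those of 36 h and of 48 h lay wider apart. The score asked for low means at 12 h and 24 h, and the floor can narrow the spread of low signals. Nothing is therefore read from the closeness of the trough arrays. The median member log2 signal was 6.34, 6.47 and 6.55 on the 12 h arrays of replicates 1, 2 and 3, and 6.81, 6.83 and 6.75 on those of 24 h. At 36 h it was 8.18, 7.84 and 7.27, and at 48 h it was 9.02, 8.49 and 8.08. Replicate 1 read highest and replicate 3 lowest at both late times, although the medians of all probe sets at 48 h ran the other way, at 7.24, 7.36 and 7.41. The 36 h array without a number in its title is called replicate 3 by its place among the samples only. All 150 members lay above their own higher trough mean on the 48 h arrays of replicates 1 and 2, and 142 did on that of replicate 3. On the 36 h arrays 145, 138 and 116 did. When 1 array at a time was left out of the score, the array whose loss lowered it most was 48 h replicate 1 for 54 of the 150. The extent of recovery thus differed between arrays of the same time, and values without single arrays are given below where they matter.

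Cell type markers moved over the same hours. The summed signal of the 3 mesophyll markers measured of 12 listed (RCA, LHCB4.2 and PSAN) was 69767 to 102993 on the 0 h arrays and 1168 to 5814 on all later arrays. None of these markers returned, and none is a member. The 3 xylem markers measured of 13 listed (GUT2, also named IRX10, with IRX15 and IRX15-L) summed to 293 to 371 at 0 h, 185 to 330 at 12 h, and 220 to 609.9 at 24 h. At 36 h they summed to 2994, 3651 and 1260 in replicates 1, 2 and 3, and at 48 h to 4178, 3092 and 3218. The 36 h array with the least recovery of the members was also the one with the least xylem marker signal. Replicate 1, with the highest member median at 36 h (8.18), had a lower xylem sum than replicate 2 (7.84). At 48 h the array with the highest member median also had the highest xylem sum. Replicate 3, with the lowest member median at 48 h (8.08), had a higher xylem sum than replicate 2 (8.49). The 2 orders thus differed at both times. The 2 phloem markers measured of 9 listed, OPS and SWEET11, moved in opposite directions, and their sum was 5050 to 7822 at 0 h and 604 to 1064 at 48 h. The 3 genes measured of 6 listed under procambium (CLE41, CLE44 and MOL1) summed to 594 to 1445 at 0 h and 3855 to 4313 at 48 h. Most of the 48 h sum came from the peptide genes CLE41 and CLE44, with means of 1808 and 1781 beside 503 for MOL1. These peptide genes need not be transcribed in procambium cells, so the sum is no measure of such cells. The guard cell marker FMA and the trichome marker TRY, 1 measured of 8 and 5 listed, had mean signals of 431 and 116 at 0 h and 115.8 and 5.18 at 48 h. Of 10 epidermal markers listed, 0 were measured under a single gene name. No measured marker of the other 6 lists is a member of the set, and the part of changing cell composition in the dip and return was not tested.

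**Figure D2:**
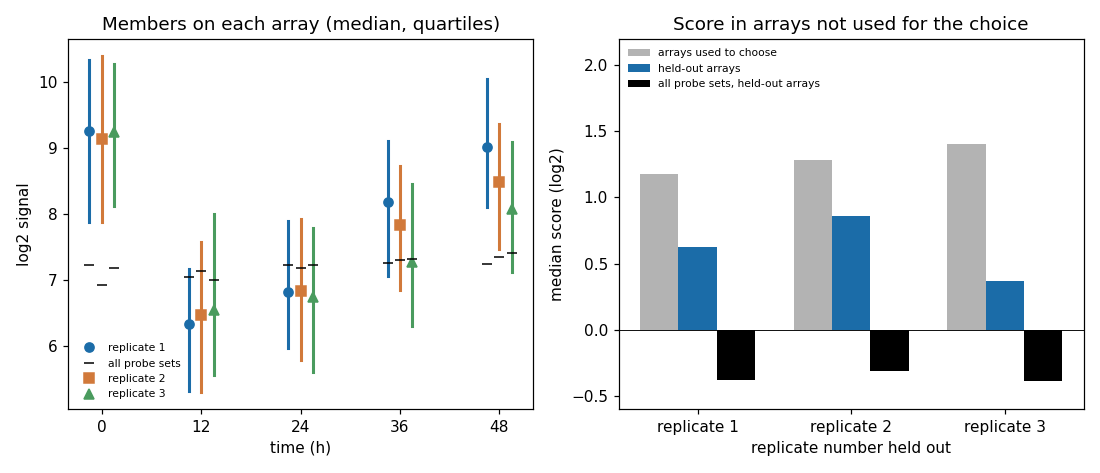
Left, the median (points) and quartiles (bars) of the log2 signals of the 150 members on each array, with the median of all probe sets as a dash; at 36 h and 48 h replicate 1 was highest and replicate 3 lowest. Right, the median score of 150 probe sets chosen on 2 replicate numbers, in those arrays (grey) and in the held-out replicate number (blue), with all probe sets in the held-out arrays (black).

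To see the shape in arrays that had no part in the choice, the rule was applied to 2 replicate numbers at a time and the score was computed in the one left out. Of 150 probe sets chosen without replicate 1, 113 scored above 0 in the replicate 1 arrays, where 12.1% of all probe sets did. Without replicate 2 the count was 139, beside 12.5% of all, and without replicate 3 it was 103, beside 12.6%. The median held-out score was 0.62, 0.86 and 0.37, against 1.18, 1.28 and 1.40 in the arrays that chose these probe sets. Of the probe sets chosen in this way, 91, 114 and 100 are among the 150 members. The dip was thus present in held-out arrays for most of the probe sets chosen, at a smaller size, and least in replicate 3. Since the replicates could be technical in part, this does not show the shape in separate cultures. Among the 150 members themselves, 106 had every 0 h and 48 h array above every 12 h and 24 h array, as did 1.83% of all probe sets. The same arrays chose the members, so nothing is read from the gap between these shares. These 106 include 62 of the 84 genes. In 49 members at least 1 of the 6 trough arrays read below 32, and in 3 members all 6 did, so the depth of those troughs is a lower limit.

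The gene with the highest score, 3.55, was AT3G15450, which has no further name in the annotation. Its signals were 1534, 5121 and 7028 at 0 h, 38.2, 34.5 and 38.4 at 12 h, 55.7, 33.1 and 65.8 at 24 h, 601, 83.0 and 45.2 at 36 h and 2841, 1432 and 47.7 at 48 h. All 6 trough arrays read between 33.1 and 65.8, whereas the 48 h arrays ranged from the trough level to above one of the 0 h arrays. The score was 2.40 without 48 h replicate 1 and 5.35 without 48 h replicate 3, and the 48 h against 0 h difference did not pass the test (log2 -2.72 ± 1.296 (SE), adjusted p = 0.0909). A similar split between the 48 h arrays was seen for AT5G08350, with a score of 1.58. Its signals were 81.1, 197 and 418 at 0 h, 39.8, 52.7 and 60.8 at 12 h, 95.2, 63.0 and 41.8 at 24 h, 431, 104 and 65.7 at 36 h and 2580.1, 2231 and 103 at 48 h. The 48 h arrays of replicates 1 and 2 were above every 0 h array and that of replicate 3 was not. Its 48 h against 0 h difference did not pass in the full fit (log2 2.16 ± 1.09 (SE), adjusted p = 0.108), but passed without 48 h replicate 3 (3.67, adjusted p = 0.00219). BLT, which is needed for trichome branching, had a score of 1.00. Its signals were 42.0, 95.6 and 64.9 at 0 h, 27.4, 16.6 and 20.9 at 12 h, 2.16, 26.8 and 22.8 at 24 h, 59.8, 37.5 and 4.74 at 36 h and 139.9, 61.3 and 5.04 at 48 h. The score of BLT was 0.47 without 48 h replicate 1, and all its trough arrays were below 32.

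EXLA1 (AT3G45970), expansin-like A1 of the expansin superfamily of wall proteins, had the second highest score of all, 2.95. Its signals were 468, 2994 and 2804 at 0 h, 59.1, 38.9 and 49.7 at 12 h, 171, 266 and 117 at 24 h, 556, 589.9 and 332 at 36 h and 3962, 922 and 665 at 48 h. All trough arrays were below all 0 h and 48 h arrays, and every 36 h array was above every trough array. The 24 h arrays were each above all 12 h arrays, but the difference did not pass the test (log2 1.85 ± 0.74 (SE), adjusted p = 0.238). At 48 h EXLA1 was close to its 0 h level, with a log2 difference of -0.23 ± 0.74 (SE), adjusted p = 0.803, and its 0 h and 48 h arrays overlapped widely. The other expansin-like A genes did not share the shape. EXLA2 scored -0.03, with mean signals of 64.3 at 0 h, 39.7 after 12 h, 65.7 after 24 h, 86.7 after 36 h and 129 after 48 h. EXLA3 scored 0.02 and its mean was below 32 at every time. Among the 17 measured genes of the wall loosening and growth list, EXLA1 was the 1 member, and the list had a median score of -1.45.

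**Figure D3:**
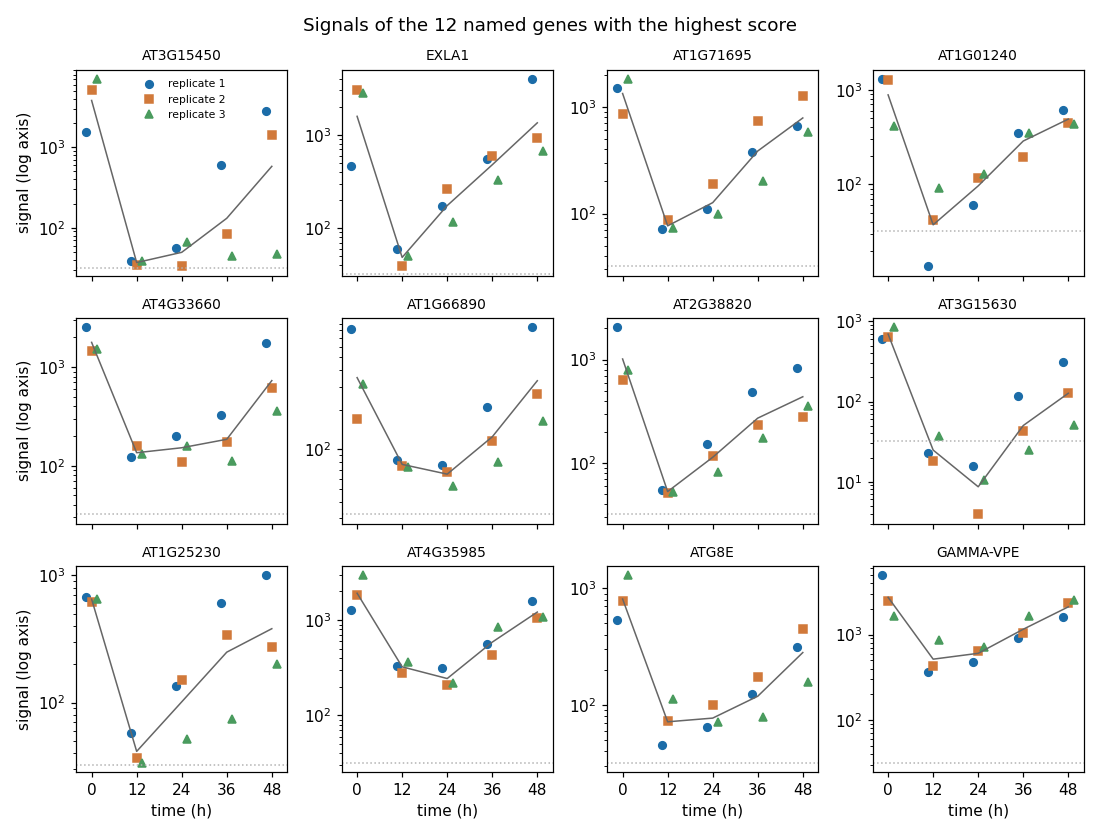
Signal on a log axis of the 12 genes with the highest score, by time in hours. Each point is 1 array, coloured by replicate number, the line joins the means of the log signals, and the dotted line marks the floor of 32; AT3G15450 shows the widest spread at 48 h, from 47.7 to 2841.

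ATG8E and ATG8F were the members of the ATG8 family. ATG8E scored 1.87, and its signals were 529, 771 and 1293 at 0 h, 45.6, 72.0 and 111 at 12 h, 64.2, 99.4 and 71.3 at 24 h, 123, 172 and 78.6 at 36 h and 316, 444 and 158 at 48 h. Every 0 h and 48 h array was above every trough array, and every 48 h array was below every 0 h array. ATG8F scored 1.02, with signals of 6028, 7525 and 3610.0 at 0 h, 455, 1108 and 742 at 12 h, 931, 1088 and 1125 at 24 h, 1678, 1659 and 1236 at 36 h and 2306, 2372 and 1737 at 48 h. Here too all 48 h arrays lay above the troughs and below the 0 h arrays. Both genes were lower at 48 h than at 0 h, ATG8E by a log2 difference of -1.52 ± 0.47 (SE), adjusted p = 0.0143 and ATG8F by -1.37 ± 0.34 (SE), adjusted p = 0.00395. The ATG8F call held in every alternative run, with adjusted p between 0.0014 and 0.0191. That of ATG8E was lost without 0 h replicate 3 (-1.19, adjusted p = 0.0635), without 48 h replicate 3 (-1.11, adjusted p = 0.0688) and with array weights (-1.33, adjusted p = 0.0545), over a range of 0.0076 to 0.0688. Of the other 6 autophagy genes measured, ATG8C scored 0.53, ATG3 0.50 and ATG8H 0.06. ATG8D at -0.59, ATG8B at -0.81 and ATG8G at -0.89 scored below 0. ATG8B rose from 0 h to 48 h (log2 1.12, adjusted p = 0.0108). The median score of these 8, of 20 listed, was 0.28, against -0.31 for all probe sets. The score chose ATG8E and ATG8F, so nothing is read from that difference. Of the 8, 2 were called lower at 48 h and 1 higher, beside 23.6% and 33.2% of all probe sets, and nothing is read from counts this small. The shape was seen in some ATG8 genes and not in others, and differences between the genes were not tested.

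GAMMA-VPE, a cysteine protease of the vacuole that matures and degrades vacuolar proteins, scored 1.802. Its signals were 4936, 2462 and 1662 at 0 h, 368, 429 and 870.2 at 12 h, 484, 634 and 718 at 24 h, 899.7, 1038 and 1643 at 36 h and 1583, 2335 and 2526 at 48 h. The trough arrays did not overlap those of 0 h or 48 h, and the 36 h arrays were each above every trough array. The 48 h level was not told apart from 0 h (log2 -0.37 ± 0.43 (SE), adjusted p = 0.475). BETA-VPE, the related enzyme best known from seeds, took the opposite course, with a score of -3.25 and mean signals of 299 at 0 h, 2373 after 12 h, 1393 after 24 h, 712 after 36 h and 452 after 48 h. SCPL34, a serine carboxypeptidase-like protein, scored 1.08, and its signals were 502, 1663 and 508 at 0 h, 26.1, 63.5 and 32.7 at 12 h, 97.8, 93.3 and 54.4 at 24 h, 105, 152 and 122 at 36 h and 149.8, 146 and 214 at 48 h. Its return was partial: SCPL34 fell from 0 h to 48 h by a log2 difference of -2.17 ± 0.46 (SE), adjusted p = 0.00166. That call held in every alternative run, with adjusted p up to 0.0139. SCPL34 was the 1 member among 29 serine carboxypeptidase-like genes measured, whose median score was -0.03.

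MCCA, the biotin-carrying subunit of 3-methylcrotonyl-CoA carboxylase in leucine breakdown, scored 1.38. Its signals were 621, 945 and 1203 at 0 h, 34.8, 117 and 87.1 at 12 h, 135, 131 and 154 at 24 h, 229, 164 and 162 at 36 h and 547, 427 and 203 at 48 h. The 12 h arrays read lowest, the 24 h and 36 h arrays were close together, and every 48 h array stood above the trough. MCCA was lower at 48 h than at 0 h (log2 -1.298 ± 0.45 (SE), adjusted p = 0.0269). The call was lost without 0 h replicate 2, without 0 h replicate 3 (-1.08, adjusted p = 0.0932), without 48 h replicate 3 (-0.88, adjusted p = 0.123) and with only the groups compared in the fit, and adjusted p ran from 0.0134 to 0.123 over the alternatives. MCCB, the other subunit of the same enzyme, ranked 652 with a score of 0.49. Its mean signals were 829 at 0 h, 278 after 12 h, 437 after 24 h, 541 after 36 h and 616 after 48 h, the same order of times as MCCA with a shallower dip. Of the sugar starvation and dark list, 6 of 30 genes were measured, and ATG8E and MCCA were the members. AKINBETA1, a regulatory subunit of the SnRK1 kinase that acts under low energy, was just outside them at rank 221 with a score of 0.86. It fell between mean signals of 1580.5 at 0 h and 273 at 48 h (log2 -2.43, adjusted p = 0.000149). IVD, another enzyme of leucine breakdown, scored -0.29 and ATG8B -0.81. The median score of the 6 was 0.68, against -0.31 for all probe sets. This score chose ATG8E and MCCA, and the list was made with earlier results known, so nothing is read from that difference. ATG8E, MCCA and AKINBETA1 fell from 0 h to 48 h, ATG8B rose, and IVD and MCCB did not pass the test.

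**Figure D4:**
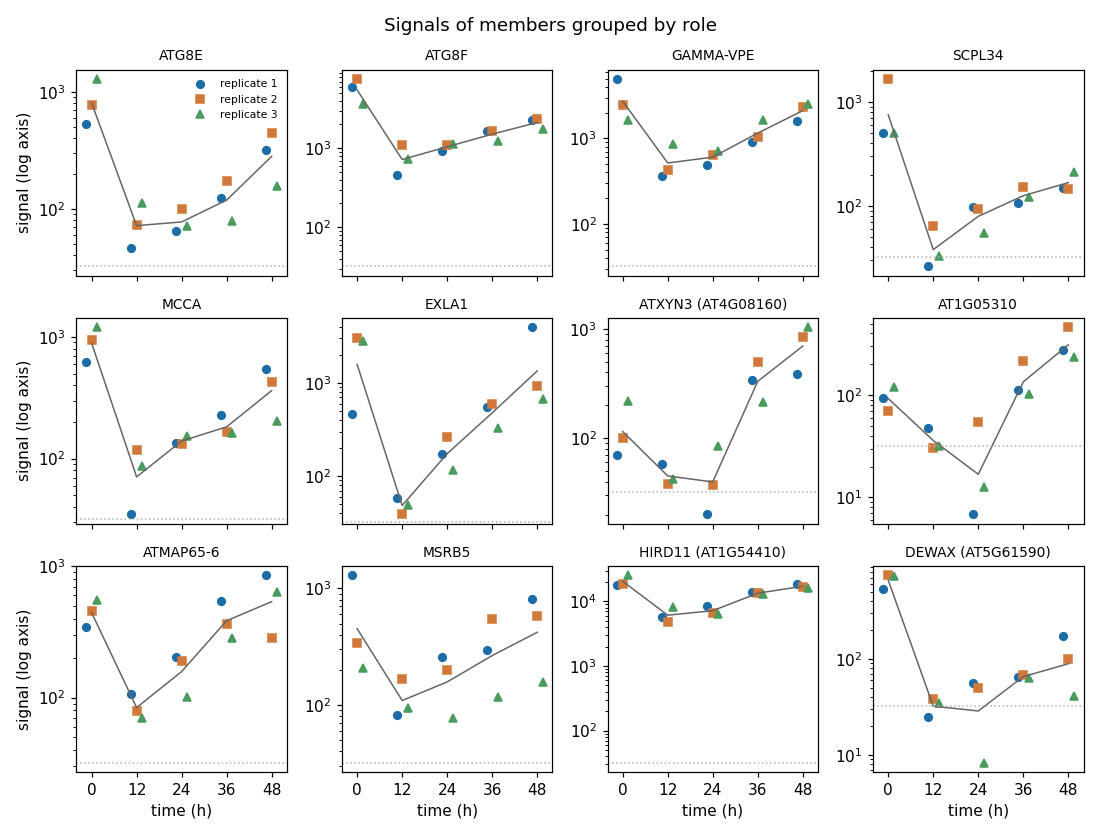
Signal on a log axis of 12 members grouped by role, by time in hours, with 1 point per array, a line through the means of the log signals and a dotted line at the floor of 32. ATG8E, ATG8F, MCCA, SCPL34 and DEWAX return to below their 0 h level, and ATXYN3 and AT1G05310 exceed it.

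Other members with a listed name had varied roles. ATMAP65-6, of a family of proteins that bundle microtubules, scored 1.49 with signals of 344, 460.2 and 551 at 0 h, 107, 79.0 and 70.2 at 12 h, 205, 192 and 100.3 at 24 h, 548, 366 and 285 at 36 h and 855, 284 and 639.5 at 48 h. Its 36 h arrays were already above every trough array, and 48 h was not told apart from 0 h (log2 0.28 ± 0.42 (SE), adjusted p = 0.59). MSRB5, a methionine sulfoxide reductase that repairs oxidised methionine, scored 1.42 with signals of 1299.7, 339.8 and 208 at 0 h, 81.3, 168 and 94.8 at 12 h, 257, 198 and 76.9 at 24 h, 295, 543 and 117 at 36 h and 806, 582 and 158 at 48 h. Its replicate 3 array was lowest at 0, 24, 36 and 48 h, and the trough arrays overlapped those of 0 h and of the late times. Without 0 h replicate 1 the score of MSRB5 was 0.76. Among the other methionine sulfoxide reductases MSRB6 scored -0.91, with a mean of 2714 at 0 h and 70.2 at 48 h, so it did not return. HIRD11 (AT1G54410), a small dehydrin, scored 1.26. Its signals were 17980.3, 18933 and 25546 at 0 h, 5843, 4891 and 8079 at 12 h, 8549, 6709.8 and 6489 at 24 h, 13875, 13382 and 13081 at 36 h and 18592, 16711 and 16404 at 48 h. Its trough arrays did not overlap the others, and 48 h was close to 0 h (log2 -0.26 ± 0.22 (SE), adjusted p = 0.339). QQS, an orphan gene of A. thaliana that affects leaf starch, scored 0.99, with mean signals ± SD of 561 ± 377 at 0 h, 162 ± 107 after 12 h, 246 ± 136 after 24 h, 346 ± 59.3 after 36 h and 473 ± 252 after 48 h (n = 3). Its trough arrays overlapped those of 0 h and 48 h. ATL8, a RING-finger protein of the ATL ubiquitin ligases, scored 1.06, with means of 94.2 ± 62.0 at 0 h, 38.7 ± 20.03 after 12 h, 26.2 ± 16.3 after 24 h, 77.5 ± 48.0 after 36 h and 124 ± 91.7 after 48 h, and replicate 1 read highest at every time. AT3G52060, listed as GnTL, a glycosyltransferase-like gene, scored 0.99 with means of 392 ± 252 at 0 h, 176 ± 31.7 after 12 h, 161 ± 67.3 after 24 h, 223 ± 69.6 after 36 h and 376 ± 125 after 48 h. It had the smallest gap between trough and high arrays among the members that did not overlap.

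DEWAX (AT5G61590), a transcription factor of the ERF family that represses genes of cuticular wax synthesis, was the 1 transcription factor among the members with a listed name. Its signals were 533, 745 and 725 at 0 h, 24.6, 38.6 and 35.0 at 12 h, 56.4, 50.2 and 8.32 at 24 h, 64.1, 68.4 and 63.8 at 36 h and 172, 99.1 and 41.4 at 48 h. It lay just inside the threshold, and its 48 h replicate 3 array fell within the range of the trough arrays. DEWAX had the largest fall from 0 h to 48 h among the member genes called (log2 -2.89 ± 0.64 (SE), adjusted p = 0.00214), equal to a 7.42-fold lower signal. The fall passed in every alternative run, with adjusted p between 3.28e-05 and 0.0112, and ranged from -3.37 to -2.34. The next largest falls were those of AT3G15630, by log2 -2.45 ± 0.71 (SE), adjusted p = 0.0102, and SCPL34. The signals of AT3G15630 were 611, 645 and 849 at 0 h, 22.9, 18.0 and 37.0 at 12 h, 15.6, 3.90 and 10.6 at 24 h, 117, 42.9 and 25.1 at 36 h and 315, 129 and 50.4 at 48 h. Its 24 h arrays were all below 32, so that its trough is known only as an upper limit.

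In the fit over all arrays 48 h was compared with 0 h, since the score asks that both be high and does not fix which is higher. At 48 h, 8 members were called higher at an adjusted p under 0.05, or 5.33% of the members, where 33.2% of all 17856 probe sets tested were. Another 38, or 25.3%, were called lower, where 23.6% of all were, and 104 were not called. All 150 members passed the filter on dim probe sets. The share called lower is near the background and is no result about the set. The share called higher was below it, in a set whose score takes the lower of both levels. The median log2 difference was -0.41 in the members and 0.21 in all probe sets tested. Calls for 4 of the 8 and 25 of the 38 remained in all 6 fits that left out 1 array of either time.

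**Figure D5:**
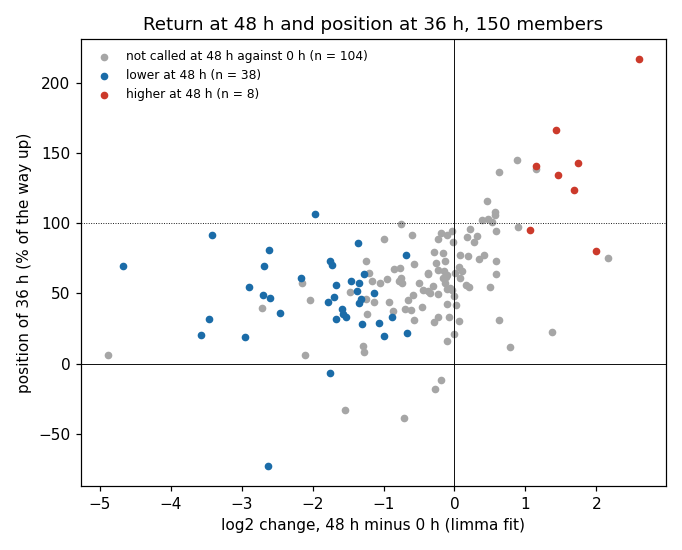
For each of the 150 members, the fitted log2 difference of 48 h minus 0 h on the horizontal axis and the position of 36 h on the vertical axis, in percent of the way from the higher trough mean (0) to the lower of the 0 h and 48 h means (100). Colours give the call at an adjusted p under 0.05, with 8 higher, 38 lower and 104 not called; ATXYN3 is the point at 216.7%.

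Among the genes that overshot their starting level, AT4G08160, listed as ATXYN3 and named for its likeness to xylanases, which cut the xylan of plant walls, stood highest. Its signals were 70.2, 99.7 and 218 at 0 h, 57.6, 37.8 and 42.5 at 12 h, 20.1, 37.3 and 84.2 at 24 h, 341, 494 and 217 at 36 h and 387, 842 and 1041 at 48 h. Every 36 h and 48 h array of ATXYN3 was above every trough array, and all but 1 of them were above every 0 h array. It rose from 0 h to 48 h by log2 2.598 ± 0.57 (SE), adjusted p = 0.00188, a 6.06-fold higher signal, with adjusted p up to 0.01 over the alternatives. AT4G33490 rose by log2 2.00 ± 0.55 (SE), adjusted p = 0.00815. Its signals were 379, 365 and 472 at 0 h, 155, 169.5 and 168 at 12 h, 249, 130.3 and 229.6 at 24 h, 503, 257 and 328 at 36 h and 5141, 949.7 and 856 at 48 h. Each of its 48 h arrays was above every other array, but replicate 1 stood far above the rest, and without it the log2 difference was 1.16 (adjusted p = 0.0118). The call was lost with array weights (1.60, adjusted p = 0.0546) and with only the groups compared (2.00, adjusted p = 0.0508), with a range of 0.00398 to 0.0546. AT1G05310 rose by log2 1.74 ± 0.61 (SE), adjusted p = 0.0275. Its signals were 94.0, 69.5 and 121 at 0 h, 48.0, 30.5 and 31.8 at 12 h, 6.82, 54.9 and 12.7 at 24 h, 112, 215 and 101 at 36 h and 274, 461 and 235 at 48 h. Its call did not hold when arrays were centred or quantile normalized, with array weights, or with either of the first 2 arrays of 0 h or replicate 2 of 48 h left out, with log2 differences of 1.46 to 1.96 and adjusted p of 0.000898 to 0.0976. The other genes called higher were AT1G56720 (1.42), AT1G01640 (1.46) and AT5G23750 (1.06), with 2 unlisted probe sets.

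Between 12 h and 24 h, both ends of which were chosen low, 2 members were called higher at 24 h, where 0.98% of all probe sets were. No member was called lower by limma, where 0.241% of all were, and at an unadjusted p under 0.05 there were 27 members higher, beside 10.5% of all, and 1 lower, beside 5.96%. AT2G32970 differed by log2 2.81 ± 0.59 (SE), adjusted p = 0.0425, with signals of 438, 392 and 486 at 0 h, 5.58, 44.8 and 28.6 at 12 h, 168, 101 and 147 at 24 h, 213, 151 and 173 at 36 h and 409, 221 and 219 at 48 h. AT2G39420 differed by log2 1.83 ± 0.40 (SE), adjusted p = 0.0482, with signals of 1003, 2912 and 2109 at 0 h, 94.0, 193 and 127.7 at 12 h, 581, 443 and 404 at 24 h, 586, 640.4 and 723 at 36 h and 1464, 903 and 688 at 48 h. In both genes every 24 h array was above every 12 h array, and the mean continued upward to 48 h. With the replicate number as a block the adjusted p became 0.0601 and 0.0559, so neither passed. Both calls were also lost with centred arrays (0.055 and 0.0925) and without any 1 of the 24 h arrays. For the set as a whole, the median step from 12 h to 24 h was 0.17 on the log2 scale, against 0.04 for all probe sets kept.

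The 36 h arrays had no part in the score. Of the 150 members, 144 had a 36 h mean above their higher trough mean and 149 a 36 h mean below that of 48 h. Placed on a scale from the higher trough mean (0%) to the lower of the 0 h and 48 h means (100%), 36 h lay at a median of 57.7%, with quartiles of 39.7% and 77.3%. In 95 members it was past 50%, and in 71 to 107 when 1 of the 36 h arrays was left out, the lower count without replicate 1 and the higher without replicate 3. In 69 members every 36 h array was above every 12 h and 24 h array, as in 7.16% of all probe sets. The median step was 0.82 from 24 h to 36 h and 0.64 from 36 h to 48 h, and 91 members took the larger of these steps before 36 h. With all 36 h arrays the typical member was thus past the middle of its way back on the log2 scale. Without 36 h replicate 1, where 71 of the 150 were past it, that did not hold. The 24 h side was chosen low and the 48 h side chosen high.

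Tested singly, few of these steps passed. The rule chose members low at 24 h and high at 48 h, so these counts and p-values are read as a description. Just 1 member was called higher at 36 h than at 24 h, beside 0.112% of all probe sets, and it was the unlisted probe set 258774_at, named after its values were seen. Its signals were 1010.0, 804 and 859 at 0 h, 117, 128.3 and 79.6 at 12 h, 120.3, 194 and 302 at 24 h, 1481, 1501 and 922 at 36 h and 3478, 3117 and 2144 at 48 h. The signals did not overlap between any of 24 h, 36 h and 48 h, and the log2 difference was 2.73 ± 0.34 (SE), adjusted p = 0.014. At an unadjusted p under 0.05 the count was 65 of 150, beside 7.26% of all. With the replicate number as a block 4 members were called higher, beside 0.37% of all. Lower at 36 h than at 24 h were 0 members (0% of all by limma) at an adjusted p and 0 at an unadjusted p, beside 4.47% of all. Against 48 h, limma called 0 members higher and 0 lower, as it did for 0% of all probe sets, with 0 and 38 at an unadjusted p, beside 1.22% and 2.36% of all. For 36 h against 24 h, the genes nearest to a call were ATXYN3 (log2 3.06 ± 0.57 (SE), adjusted p = 0.0676), AT1G05310 (3.0 ± 0.61 (SE), adjusted p = 0.0846) and AT3G14595 (1.22 ± 0.26 (SE), adjusted p = 0.0932), all higher at 36 h.

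Genes differed widely in where 36 h fell. The 4 with the lowest position were AT2G30990 at -32.8%, AT1G22550 at -17.8%, AT3G45730 at -6.28% and AT2G31940 at 11.6%. AT2G30990 read 579, 1652 and 1527 at 0 h, 57.6, 131 and 292 at 12 h, 99.95, 60.0 and 146 at 24 h, 133, 83.3 and 68.1 at 36 h and 1129, 269 and 192 at 48 h. Its 36 h arrays were within the trough range, and so were its 48 h arrays of replicates 2 and 3. Its score of 1.57 became 0.80 without 48 h replicate 1. AT2G31940 read 56.3, 96.0 and 187 at 0 h, 30.8, 39.0 and 54.8 at 12 h, 31.9, 35.6 and 28.4 at 24 h, 60.6, 34.9 and 44.3 at 36 h and 515, 135 and 74.0 at 48 h, with 48 h replicate 1 far above the other 48 h arrays. AT3G45730 read 392, 282 and 295 at 0 h, 38.3, 56.5 and 17.6 at 12 h, 70.0, 34.0 and 40.8 at 24 h, 34.5, 70.4 and 34.5 at 36 h and 126, 254 and 26.6 at 48 h, and its 48 h replicate 3 array was still in the trough. It was lower at 48 h than at 0 h (log2 -1.75 ± 0.69 (SE), adjusted p = 0.0453), a call kept in 1 of the 6 fits that left out 1 array, at -0.84 without 48 h replicate 3 (adjusted p = 0.205). AT1G22550 had signals of 79.0, 73.5 and 164 at 0 h, 12.4, 3.57 and 48.9 at 12 h, 23.02, 15.2 and 18.6 at 24 h, 12.9, 11.3 and 26.0 at 36 h and 216, 48.2 and 52.5 at 48 h, mostly below 32 between 12 h and 36 h. The late return of these 4 genes was thus uneven between the 48 h arrays.

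The 4 genes with the highest position were ATXYN3 at 217%, AT1G56720 at 166%, AT1G05310 at 143% and AT5G07080 at 139%. In each of them the 36 h mean already exceeded that of 0 h. AT1G56720 read 119, 129 and 174 at 0 h, 41.4, 27.9 and 53.8 at 12 h, 62.5, 92.2 and 53.3 at 24 h, 334, 309 and 109 at 36 h and 496, 256 and 407 at 48 h, and it rose from 0 h to 48 h by log2 1.42 ± 0.43 (SE), adjusted p = 0.0132. That call was lost without 48 h replicate 1 (1.22, adjusted p = 0.0533) and with array weights (adjusted p = 0.0599), with adjusted p from 0.00449 over the alternatives. AT5G07080 read 83.0, 130.0 and 159 at 0 h, 53.8, 31.9 and 67.0 at 12 h, 17.0, 57.2 and 62.4 at 24 h, 152, 258 and 123 at 36 h and 262, 440.3 and 161 at 48 h, and its 48 h against 0 h difference did not pass (log2 1.15 ± 0.53 (SE), adjusted p = 0.0847).

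The remaining genes of highest score are known here by locus number alone. AT1G71695 scored 2.63 with signals of 1498, 862 and 1814 at 0 h, 70.9, 87.4 and 72.6 at 12 h, 109, 187 and 98.9 at 24 h, 380.5, 740.3 and 202 at 36 h and 663, 1250.5 and 581 at 48 h. AT1G01240 scored 2.34 with signals of 1297, 1276 and 415 at 0 h, 13.6, 41.9 and 91.8 at 12 h, 61.0, 115 and 127 at 24 h, 348, 197 and 347 at 36 h and 609, 448 and 430.3 at 48 h. Neither overlapped between trough and high arrays, and these genes had the widest such gaps among the 12 of highest score. AT4G33660 scored 2.26, with signals of 2544, 1459 and 1523 at 0 h, 121, 157 and 130.0 at 12 h, 202, 109.6 and 158 at 24 h, 325, 175 and 111 at 36 h and 1737, 618 and 361 at 48 h, and stood at 12.6% of the way at 36 h. AT1G66890 scored 2.11, with signals of 813, 169 and 313 at 0 h, 83.4, 74.6 and 72.9 at 12 h, 76.1, 67.3 and 53.1 at 24 h, 209.7, 116 and 79.5 at 36 h and 848, 264 and 163 at 48 h, and its replicate 1 arrays were far above the others at 0, 36 and 48 h. In both genes replicate 1 was the highest of the 48 h arrays, and all 3 of these were above the trough arrays. Without 48 h replicate 1 the scores of AT4G33660 and AT1G66890 were 1.64 and 1.43. AT2G38820 scored 1.94, with signals of 2061, 633 and 801 at 0 h, 55.0, 51.7 and 53.1 at 12 h, 154, 117 and 82.7 at 24 h, 486, 235 and 177 at 36 h and 832, 281 and 359 at 48 h. AT1G25230 scored 1.91, with signals of 672, 624 and 658 at 0 h, 57.1, 36.5 and 33.7 at 12 h, 134, 149.7 and 51.7 at 24 h, 611, 338 and 74.9 at 36 h and 1004, 275 and 200.4 at 48 h, and its 0 h arrays were close together while its 36 h arrays were not. AT4G35985 scored 1.91, with signals of 1289, 1842 and 2964 at 0 h, 333, 280.4 and 363 at 12 h, 316, 209 and 219 at 24 h, 567, 426 and 839.9 at 36 h and 1590.1, 1059 and 1067 at 48 h. Its trough was narrow and every 36 h array was above it.

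The last of the 20 genes of highest score were described by their means. AT2G40230 scored 1.68 and had reached its 0 h level at 36 h, with mean signals ± SD of 178 ± 96.9 at 0 h, 40.4 ± 31.9 after 12 h, 44.6 ± 28.9 after 24 h, 176 ± 38.7 after 36 h and 238 ± 51.5 after 48 h (n = 3). AT3G14595 scored 1.66, with 3248 ± 641 at 0 h, 634 ± 135 after 12 h, 952 ± 292 after 24 h, 2164 ± 215 after 36 h and 2962 ± 497 after 48 h. AT4G01330 scored 1.65, with 483 ± 196 at 0 h, 61.0 ± 17.5 after 12 h, 85.8 ± 13.7 after 24 h, 178 ± 75.02 after 36 h and 285 ± 127 after 48 h. In these 3 genes 36 h lay at 108%, 73.4% and 58.7% of the way. AT2G20500 scored 1.52, with 135 ± 93.3 at 0 h, 35.7 ± 19.6 after 12 h, 40.0 ± 22.7 after 24 h, 87.3 ± 46.4 after 36 h and 213 ± 162 after 48 h. AT1G18460 scored 1.54, with signals of 1099.5, 797 and 1151 at 0 h, 85.8, 83.3 and 85.2 at 12 h, 113, 123 and 207 at 24 h, 323, 290.1 and 241 at 36 h and 507, 399 and 352 at 48 h. Its 48 h arrays were all above the trough and all below the 0 h arrays, and it fell by log2 -1.27 ± 0.26 (SE), adjusted p = 0.00109, with adjusted p up to 0.0106 over the alternatives. AT1G18460 is the neighbour of the member AT1G18470 on chromosome 1, the 1 pair of adjacent protein-coding genes among the 84. AT1G18470 scored 1.08, with signals of 1405, 1371 and 546 at 0 h, 380.0, 492 and 599 at 12 h, 536, 425 and 360.3 at 24 h, 1254, 859.6 and 585 at 36 h and 1336, 898 and 1019 at 48 h, and unlike its neighbour it did not pass the test between 48 h and 0 h (log2 0.07 ± 0.38 (SE), adjusted p = 0.884). Over the 15 arrays, which share the time course that chose both, the log2 signals of the pair had a correlation of 0.68.

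The other 51 genes outside these rules of naming scored 0.99 to 1.44. Of them, 16 were called lower and 2 higher at 48 h than at 0 h, beside 23.6% and 33.2% of all probe sets, with log2 differences of -1.96 to 1.46, and 36 h lay at 19.9% to 134% of the way. Of the lists compared with the set, those for starvation and wall loosening held members. Nuclear photosynthesis genes (7 measured), xylem wall and cell death (7), cell cycle (6), jasmonate and wound (6), auxin (7), abscisic acid (5), sugar transport (14) and senescence (4) held none, and each of these had a median score below 0. The members are 0.659% of all probe sets, so lists this short would mostly hold none, and nothing is read from it. The photosynthesis genes had a median log2 signal of 14.8 before culture, 9.32 after 12 h and 8.79 after 48 h, and all 7 were called lower at 48 h than at 0 h.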

How the data were processed

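RNA of 15 samples was hybridised to 1 array each. The deposited intensities are linear signals for which the submitters' processing notes name the authors' tools GCOS and MAS5 without versions. Detection calls were not used. Median signals per array ran from 121.8 to 169.9. No arrays were identical. The 64 control probe sets were left out. The platform annotation pairs 13513 probe sets with 1 gene, 503 with several and 8730 with none, and 13436 of the single genes matched a RefSeq locus (TAIR10.1).

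Tests used limma 3.58.1 in R 4.3.3 on log2 signals with no offset, on 5 group means over all arrays (10 residual degrees of freedom), two-sided, with Benjamini-Hochberg adjustment over the 17856 probe sets whose highest group mean reached percentile 30 of group means, a signal of 34.2. The fit was tested on simulated data. The members and lists were chosen with earlier results of these data known, and the families after the members were seen. In the lists 3 symbols that matched a gene of another function (FDH, HPR1 and CHI) were left out, after values were seen. Genes were named by rule: the 20 of highest score, members in a gene list (up to 5 each), the 3 largest calls each way, 4 extreme positions at 36 h each way, 3 neighbours on each side of the threshold, and members with known roles. The other named family members were chosen after their values were seen. Same-numbered arrays deviated together between 12 h and 24 h, with correlations of 0.38, 0.15 and 0.45, so these numbers behaved as pairs. The main fit has no term for the pairs, and the replicate number as a block was run as an alternative. Between 0 h and 48 h the correlations were 0.02, 0.06 and 0.09, so those arrays share only a number, and 1 of the 36 h arrays has no number. The 2 numbered pairs gave 0.50 and 0.29 between 24 h and 36 h, and 0.48 and 0.31 between 36 h and 48 h. The unnumbered 36 h array gave 0.55 with 24 h replicate 3 and 0.47 with 48 h replicate 3. With replicates 1 and 2 it gave -0.43 and -0.17 at 24 h, and -0.36 and -0.096 at 48 h. It thus deviated together with the replicate 3 arrays, though its label gives no number.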

Additional observations from a re-analysis of the deposited data

How the results depend on the processing

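Of the 150 members, 94 remained with the highest floor tried, 81 with a score from single arrays, and 91, 114 and 100 without replicates 1, 2 and 3. Between 110 and 131 remained with floors of 16 or 64, medians, centring or quantile normalization, and 114 to 142 without 1 array, an alternative chosen after seeing the data. Members higher at 48 h than at 0 h numbered 8, but 5 with centred arrays, 5 with quantile normalization, 5 with only the groups compared and 4 with array weights, and 5 to 10 without 1 array. Members lower at 48 h numbered 38, and 27 to 50 without 1 array. For 24 h above 12 h the 2 calls became 4 with a floor of 32, 0 centred, 1 quantile normalized, 0 with no filter, 4 with a filter at percentile 50, 31 with array weights, 0 with only the groups compared, and 0 to 2 without 1 array. Calls lower at 24 h went from 0 to 4 with array weights. For 36 h above 24 h the 1 call became 7 with a floor of 32, 4 with 16 added, 3 with a filter at percentile 50, 64 with array weights, 0 with only the groups compared, and 0 to 4 without 1 array. Array weights raised the counts over all probe sets too, to 1898 and 1283, from 175 and 20. The cause of these moves was not tested.

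With the replicate number as a block, 9 members were higher and 41 lower at 48 h than at 0 h, 1 was higher at 24 h than at 12 h, 4 were higher at 36 h than at 24 h, and 0 differed between 36 h and 48 h. The unnumbered 36 h array was given a block level of its own. Held-out counts of 113, 139 and 103 became 100, 135 and 92 with centred arrays, where the median held-out score in replicate 3 was 0.15 instead of 0.37, and 110, 137 and 102 or 114, 138 and 100 with floors of 16 or 64. Members past 50% of the way at 36 h numbered 95, and 85 centred, 96 and 90 with those floors, and 71 to 107 without 1 array of 36 h. For single genes, 551 values kept their side of the threshold, 44 lost and 32 gained a call, and 0 changed direction.

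Detection calls were not used, so the floor of 32 sets how deep the trough appears in the 49 members with a trough array below it. The arrays, 3 at each time, limit what the fit can call.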
